A study of Mus musculus with 6 samples.

Results

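The AP-1 family is described here through 10 genes, Fos, Fosb, Fosl1, Fosl2, Jun, Junb, Jund, Batf, Batf3 and Atf3, which were chosen by symbol from the 24470 genes of the deposited count table. All 10 were found, and 9 of them passed the filter on low counts, as did 11666 genes in all. Batf3 did not pass. The RNA came from naive CD4+ T cells that had been isolated on magnetic columns from the spleen and the lymph nodes draining the skin of male C57BL/6J mice. All cells, those without the chemokine included, were stimulated for 6 h by immobilised antibodies (coating at 1 µg/mL) against CD3, through which the T cell receptor signals, and the costimulatory receptor CD28. The 3 CCL19 libraries came from cultures with recombinant mouse CCL19, which is a ligand of the chemokine receptor CCR7, and the 3 NoCKN libraries came from cultures without it. The dose of CCL19 and the age of the mice are not in the labels. No unstimulated cells and no other time point were among the samples, so the level before stimulation is not known. The labels do not say whether replicates came from separate animals or cultures, and p-values therefore reflect only the spread among these libraries, which could be technical.

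AP-1 factors are dimers of basic leucine zipper proteins that bind short DNA elements related to the cyclic AMP response element. JUN proteins pair with themselves or with FOS proteins, whereas FOS proteins bind DNA only with a partner such as a JUN protein. BATF proteins lack a transactivation domain, pair with JUN proteins and bind together with interferon regulatory factors. In T cells the T cell receptor and CD28 drive FOS and JUN through the mitogen-activated protein kinase (MAPK) cascades, and AP-1 binds beside NFAT at cytokine genes such as Il2. Fos and Jun are classic immediate early genes, and Fosl1 and Fosl2, which encode FRA1 and FRA2, are usually induced later and more stably.

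The libraries held 16978736 to 27429898 counts. CCL19 replicate 3 stood closer to NoCKN replicate 3 (chi-square of 5.32 per degree of freedom) than to the other libraries of its own group (12.2 and 17.4). Transcripts of 10 naive CD4+ T cell markers, Cd3e and Cd4 among them, summed to 4518 to 5518 CPM (gene counts scaled to a common library size with TMM factors) with CCL19 and 5299 to 6372 CPM without it. The summed markers of B cells lay at 16.5 to 22.6 CPM with CCL19 and 21.2 to 25 CPM without it, and those of myeloid, dendritic, natural killer, CD8 T and erythroid cells at 11.4 to 23.6 CPM in any library. Regulatory T cell markers summed to 39.1 to 43.8 CPM. No marker was at 0 in all libraries, and the part of such cells in the results was not tested.

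Promoter sequences from RefSeq (build GRCm38.p6), which hold 250 bases before and 50 after each start site, were matched for 9 of the 10 members. Fosl1 had no entry. The 120 bases before the start site are shown for 5 members that hold a match to, or a variant of, the element bound by AP-1 and its ATF and CREB relatives, so that the forms can be compared. Capitals mark the match in each, and lines read 5′ to 3′ on the strand of the gene. Fos lies at chr12:85473770-85473889, Fosb at chr7:19310046-19310165, Junb at chr8:84978749-84978868, Jun at chr4:95052223-95052342 and Atf3 at chr1:191183334-191183453. 
Fos: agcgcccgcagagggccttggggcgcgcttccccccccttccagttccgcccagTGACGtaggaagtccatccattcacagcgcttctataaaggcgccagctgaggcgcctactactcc
Fosb: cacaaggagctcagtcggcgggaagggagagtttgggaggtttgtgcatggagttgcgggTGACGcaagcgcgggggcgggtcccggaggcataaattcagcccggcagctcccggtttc
Junb: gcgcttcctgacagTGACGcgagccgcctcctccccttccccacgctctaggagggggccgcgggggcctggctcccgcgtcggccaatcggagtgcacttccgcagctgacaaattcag
Jun: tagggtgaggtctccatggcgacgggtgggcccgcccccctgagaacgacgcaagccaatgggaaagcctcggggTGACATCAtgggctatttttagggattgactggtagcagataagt
Atf3: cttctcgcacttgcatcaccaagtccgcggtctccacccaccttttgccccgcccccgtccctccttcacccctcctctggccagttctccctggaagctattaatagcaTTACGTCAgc

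The core TGACG, searched on both strands, occurred in 5 of the 9 member promoters, those of Fos, Fosb, Junb, Batf and Atf3, and in 20.8% of the 32851 promoters of the table. The Jun promoter holds TGACATCA at position -45 from the start, a form found in 3.62% of all promoters, and a match to the MEF2 motif at -33. That motif also matched in the Atf3 promoter at -22 and in 0.557% of all promoters. The Atf3 promoter holds TTACGTCA at -10 (0.499%), which overlaps its TGACG match on the other strand. The Fos promoter holds TGACG at -129 and -66 and TATAAA at -33. TGANTCA, the AP-1 element itself, and TGACGTCA, the full cyclic AMP response element, were in none of the 9 windows (7.81% and 1.79% of all promoters), and the CArG box of serum response factor was in none either (1.63%). These are matches of letters in a short window, and sites more than 250 bases before the start were not searched.

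The 10 genes differ widely in how much of their mRNA the cells held at 6 h. Per kilobase of exon, with all 6 libraries averaged, Junb was highest at 225 CPM per kb (196 to 261), followed by Jund at 194 (155 to 238), Fosl2 at 54.2 (46.6 to 66.1), Fosl1 at 26.6 (19.5 to 34.4), Batf at 21.8 (16.8 to 26.6), Fos at 20.6 (19.1 to 22.8), Jun at 10.6 (9.60 to 11.8), Atf3 at 6.77 (4.97 to 9.22) and Fosb at 5.0 (4.54 to 5.76). The ranges of Junb and Jund overlapped, those of Fosl1, Batf and Fos overlapped with each other, and those of Atf3 and Fosb overlapped. Within every library Junb still stood above Jund, with a ratio of 1.02 to 1.33. The founding members of the family were thus not its most abundant: Fosl2 stood at 2.42 to 2.90 times the level of Fos per kb, and Jun stood at 0.0395 to 0.0512 of the level of Junb. Genes on the opposite strand overlap 62.4% of the Fosl1 exons and 52.6% of the Jund exon. The strand setting of the counting is not stated, so the places of Fosl1 and Jund in this order are uncertain. Batf3 had 0, 1 and 0 counts with CCL19 and 4, 0 and 0 without it. A count of 0 allows up to 3 counts, or 0.109 to 0.181 CPM in these libraries, so a difference in Batf3 was not detectable at this depth and no fold change is given. These limits cover counting error only.

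**Figure D1:**
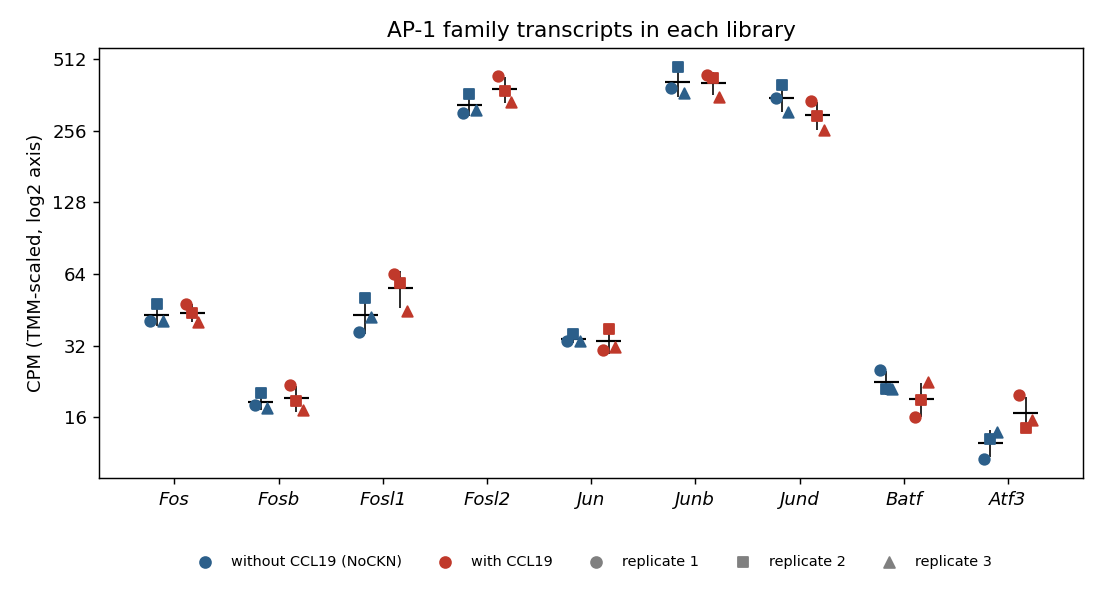
TMM-scaled CPM on a log2 axis for the 9 tested AP-1 members in each library, with blue for NoCKN, red for CCL19 and a shape for each replicate number; horizontal lines are group means and vertical lines 1 SD (n = 3). Junb, Jund and Fosl2 sit between 259 and 472 CPM and the others below 65 CPM, and only for Atf3 do all red points lie above all blue ones.

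With CCL19, no AP-1 member passed the test. edgeR's quasi-likelihood test called 0 of the 9 members at a Benjamini-Hochberg adjusted p under 0.05, and it called 0.0% of all 11666 tested genes, among which 3213 (27.5%) had an unadjusted p under 0.05. The smallest edgeR adjusted p over all genes was 0.0505, just above the threshold. With a robust prior edgeR called 529 genes and no member. Of the members, 4 had an unadjusted p under 0.05 by edgeR, namely Atf3, Fosl1 and Fosl2 above the level without CCL19 (14.5% of all genes) and Jund below it (13.0%). DESeq2, the tool named in the submitters' processing notes, called none of the 9 and 12.2% of the 9613 genes to which it gave an adjusted p. limma-voom called 0.0% of genes and no member, with 27.7% of genes at an unadjusted p under 0.05. The authors' deposited table of changed genes lists 1168 genes, the same ones that DESeq2 called here, and 0 AP-1 members. Groups did not overlap for 1 member, Atf3, which was higher with CCL19, against 29.8% of all tested genes in either direction and 15.3% in that one. Some alternative settings called members. edgeR with no filter on low counts called Fosl1 and Atf3 (10.1% of all genes), and without CCL19 replicate 3 it called Fosl1 (13.5%). DESeq2 called Fosl1 with an offset for length and GC content (11.0%), Fosl1 and Fosl2 without CCL19 replicate 3 (17.3%) or NoCKN replicate 2 (11.7%), and Jund without NoCKN replicate 3 (13.2%). In these bulk libraries fewer cells with a transcript and less of it per cell cannot be told apart.

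**Figure D2:**
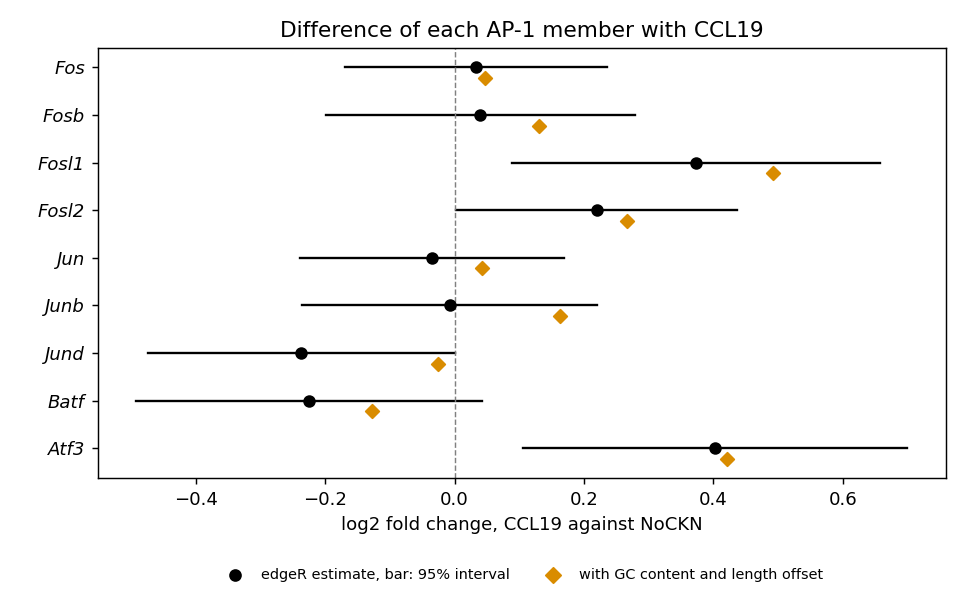
Log2 fold change of the 9 tested AP-1 members, CCL19 against NoCKN: black points and bars are the edgeR estimate and its 95% interval, and orange diamonds the estimate with an offset for length and GC content. Estimates run from -0.24 for Jund to 0.40 for Atf3, none passed after adjustment, and the diamond of Jund lies near 0, at -0.03.

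Among the FOS genes, Fos and Fosb had estimates near 0, whereas the estimates of Fosl1 and Fosl2 lay above 0. Fos (NCBI Gene 14281, mm10 chr12:85473901-85477269, 4 exons), the immediate early partner of JUN proteins, stood at 48.1, 43.7 and 40.3 CPM in CCL19 replicates 1, 2 and 3 and at 40.5, 47.7 and 40.4 CPM in the NoCKN ones. The groups overlapped over nearly their whole range. Its log2 fold change was 0.03 ± 0.09 (SE; edgeR adjusted p = 0.853), with a 95% interval of 0.889-fold to 1.18-fold. Fosb (14282, chr7:19302696-19310045, 4 exons), the paralogue with the lowest level of the 4, stood at 21.8, 18.7 and 17.2 CPM in the CCL19 libraries and 18.0, 20.2 and 17.6 CPM in the NoCKN libraries. Its log2 fold change was 0.04 ± 0.11 (edgeR adjusted p = 0.850; interval 0.871-fold to 1.21-fold). For both genes the sign of the estimate changed when single libraries were left out.

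Fosl1 (14283, chr19:5447698-5455938, 4 exons), which encodes FRA1, stood at 64.1, 58.8 and 44.9 CPM in the CCL19 libraries and 36.4, 50.8 and 42.1 CPM in the NoCKN libraries. CCL19 replicates 1 and 2 were the highest, and CCL19 replicate 3 lay below NoCKN replicate 2. The log2 fold change was 0.37 ± 0.13 (1.29-fold, interval 1.06-fold to 1.58-fold), with an edgeR adjusted p of 0.0974 and a DESeq2 adjusted p of 0.0550. Without CCL19 replicate 3 it was 0.50, which edgeR called (adjusted p = 0.0186, with 13.5% of all genes called in that fit), and without CCL19 replicate 1 it was 0.26 (edgeR adjusted p = 0.316). The counts of Fosl1 are uncertain, because Ccdc85b, on the opposite strand, overlaps 1163 bp (62.4%) of its exons and the strand setting of the counting is not stated in the submitters' notes. Ccdc85b itself stood at 17.9 ± 2.53 CPM (SD, n = 3) with CCL19 and 24 ± 5.06 without it, a log2 fold change of -0.43 ± 0.15 (edgeR adjusted p = 0.0864), which is opposite in sign to that of Fosl1.

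Fosl2 (14284, chr5:32136472-32157840, 4 exons), which encodes FRA2 and was the most abundant FOS transcript, stood at 432, 374 and 339 CPM in the CCL19 libraries and 304, 366 and 312 CPM in the NoCKN libraries. The groups overlapped through CCL19 replicate 3, which lay below NoCKN replicate 2. The log2 fold change was 0.22 ± 0.10 (1.16-fold, interval 1.00-fold to 1.35-fold; edgeR adjusted p = 0.177). Its estimate was 0.12 without CCL19 replicate 1, and between 0.17 and 0.30 without each of the others.

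The JUN genes, each a single exon in the annotation, had estimates from -0.24 to -0.01, of which those of Jun and Junb changed sign with the offset for length and GC content, to 0.04 and 0.16. Jun (16476, chr4:95049036-95052222) stood at 30.6, 37.7 and 31.7 CPM in the CCL19 libraries and 33.4, 36 and 33.4 CPM in the NoCKN libraries, a log2 fold change of -0.03 ± 0.09 (edgeR adjusted p = 0.847; interval 0.848-fold to 1.12-fold). Junb (16477, chr8:84976909-84978748), a partner of FOS and BATF proteins in activated T cells, stood at 440, 425 and 355 CPM in the CCL19 libraries and 385, 472 and 370 CPM in the NoCKN libraries. Its log2 fold change was -0.01 ± 0.11 (edgeR adjusted p = 0.970; interval 0.849-fold to 1.16-fold), and the highest and the lowest library of Junb were NoCKN replicate 2 and CCL19 replicate 3.

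Jund (16478, chr8:70697739-70700616), the JUN gene that is usually present in resting cells, stood at 340, 295 and 259 CPM in the CCL19 libraries and 350, 397 and 306 CPM in the NoCKN libraries. The groups overlapped through CCL19 replicate 1, which lay above NoCKN replicate 3. The log2 fold change was -0.24 ± 0.11 (0.849-fold, interval 0.720-fold to 1.00-fold; edgeR adjusted p = 0.182). It was -0.15 without CCL19 replicate 3, -0.14 without NoCKN replicate 2, and -0.35 without CCL19 replicate 1. Base composition moved with the comparison over all genes: the class of tested genes with the highest GC content (58.2% to 72.9%) had a median log2 fold change of -0.16 and the class with the lowest 0.12. Jund has 67.1% GC, Junb 62.6% and Fosl1 58.5%, and these 3 members fell in the highest class. Once GC content and length entered the fit as an offset, Jund had a log2 fold change of -0.03, Junb of 0.16 and Fosl1 of 0.49 (edgeR adjusted p = 0.855, 0.250 and 0.0978). The offset was fitted to each library without regard to group. It can therefore also remove an effect of CCL19 that follows GC content or length, and the source of these shifts was not tested. The GENCODE annotation also places an antisense gene, Gm11175, over 877 bp (52.6%) of the Jund exon, which makes the counts of Jund uncertain if reads were counted without strand.

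Batf (53314, chr12:85686720-85709087, 3 exons), the BATF gene that acts with IRF4 in T cells, stood at 16.1, 19.0 and 22.4 CPM in the CCL19 libraries and 25.4, 21.0 and 21.0 CPM in the NoCKN libraries. CCL19 replicate 3 lay within the NoCKN range and the other libraries with CCL19 below it. The log2 fold change was -0.22 ± 0.12 (edgeR adjusted p = 0.260; interval 0.711-fold to 1.03-fold), and it was -0.12 without CCL19 replicate 1, -0.13 without NoCKN replicate 1 and -0.36 without CCL19 replicate 3. It was -0.13 with the offset.

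Atf3 (11910, chr1:191170296-191183333, 4 exons), a stress-induced factor that pairs with JUN proteins, had an estimate above 0, as Fosl1 and Fosl2 did. It stood at 19.9, 14.5 and 15.5 CPM in the CCL19 libraries and 10.7, 13 and 13.9 CPM in the NoCKN libraries, so that every library with CCL19 lay above every one without it. The gap between the groups was narrow, at 14.5 against 13.9 CPM. The log2 fold change was 0.40 ± 0.14 (1.32-fold, interval 1.08-fold to 1.62-fold), with an edgeR adjusted p of 0.0893 and a DESeq2 adjusted p of 0.0691. It was 0.26 without CCL19 replicate 1 (edgeR adjusted p = 0.334) and 0.42 with the offset for length and GC content (edgeR adjusted p = 0.116).

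**Figure D3:**
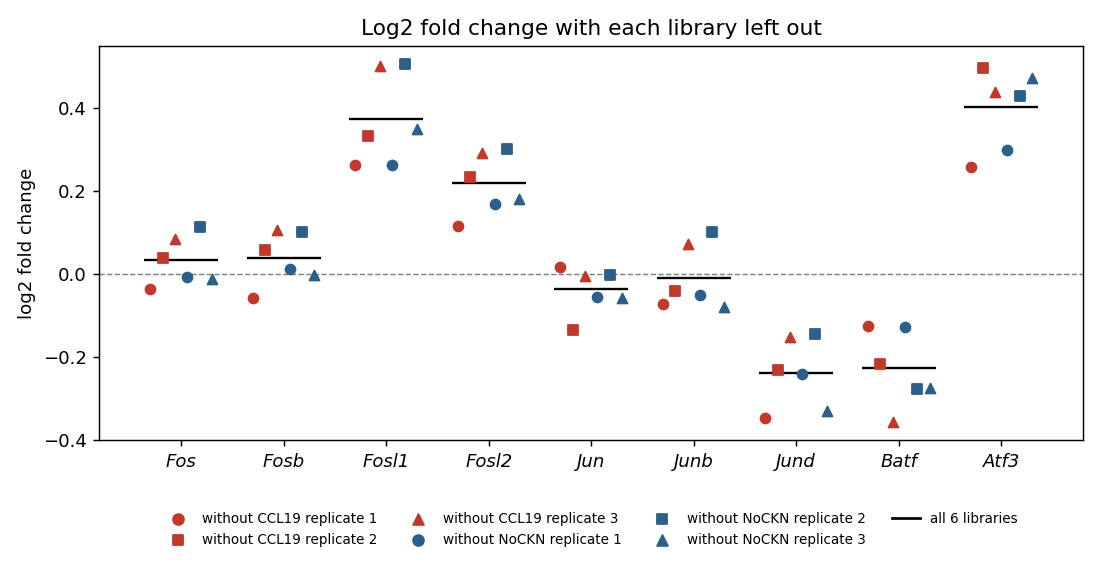
Log2 fold change of the 9 tested AP-1 members from edgeR with all 6 libraries (black line) and with each library left out (points; colour gives the group and shape the replicate number of the library left out). Fosl1 stays between 0.26 and 0.51 and Atf3 between 0.26 and 0.50, whereas Fos, Fosb, Jun and Junb cross 0.

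Spread between libraries exceeded counting error for every tested member. Within groups the coefficient of variation of CPM was 4.38% for Jun without CCL19 and 7.70% to 17.8% for the other members and groups, whereas counting alone gives 1.04% to 5.92%. Junb, Jund and Fosl2 had 5579 to 12955 counts per library.

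The FOS genes held a larger share of the AP-1 transcript pool in every CCL19 library than in any NoCKN library. Groups without overlap are common here, at 29.8% of all tested genes by CPM, so this is a description of 3 libraries against 3. When the CPM per kb of the 10 members were summed within each library, Fos, Fosb, Fosl1 and Fosl2 together held 21.1%, 20.2% and 20.2% of the sum in CCL19 replicates 1, 2 and 3 and 16.2%, 17.1% and 18.1% in NoCKN replicates 1, 2 and 3. Jun, Junb and Jund together held 74.6%, 75% and 73.5% with CCL19 and 78.0%, 78.5% and 76.5% without it. This is nearly the complement of the FOS share, because the other members hold little of the pool, and is no separate observation. Such shares do not depend on library size or its scaling.

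Jund differed in share by -4.49 percentage points, Fosl2 by 1.76, Fosl1 by 1.35 and Junb by 1.18. Fosl2 held 10.1% to 10.8% with CCL19 and 8.39% to 9.18% without it, and Fosl1 held 4.90% to 5.63% and 3.52% to 4.33%. Jund held 31.3% to 33.3% with CCL19 and 35.2% to 37.8% without it, whereas the shares of Junb overlapped (39.7% to 41.6% and 38.4% to 40.2%). A share depends on the levels of all members. With the offset for length and GC content, the log2 fold change of Jund itself was -0.03. The ratio of Fosl2 to Jund per kb was 0.327 ± 0.00616 with CCL19 and 0.239 ± 0.0196 without it (SD, n = 3). The ratio of Fos to Fosb was 4.12 ± 0.139 and 4.13 ± 0.0925. Other ratios were formed too: those of Jun to Junb and Fosl1 to Batf overlapped between the groups and the rest did not. That of Atf3 to Batf separated narrowly, at 0.307 in CCL19 replicate 3 against 0.294 in NoCKN replicate 3. Most pairs set Fosl1, Fosl2 or Atf3, with estimates above 0, over a member with a lower estimate, which favours separation. The share of ratios without overlap over all genes was not computed, so these describe the chosen pairs only. None of the ratios was corrected for GC content and length. The pool was examined after the members' values had been seen, so no p-value is given for it, and with 3 libraries against 3 an exact permutation test could not go below 0.1. Differences in share were also taken with that offset, which can remove an effect of CCL19 that follows GC content or length. They became smaller for the FOS genes (from 3.38 to 2.16 percentage points) and the JUN genes (from -3.29 to -1.78). Those of Fosl2 (from 1.76 to 1.05), Fosl1 (to 1.24) and Jund (to -3.22) became smaller too, whereas that of Junb became larger (1.52). Under the offset the FOS share was 19.2% to 20.8% with CCL19 and 16.8% to 18.4% without it, and the JUN share 74.9% to 75.7% and 76.5% to 77.3%. Shares under the offset were 9.81% to 10.4% and 8.74% to 9.35% for Fosl2, and 31.9% to 33.2% and 35.1% to 37.5% for Jund. The uncertainty from the genes opposite Fosl1 and Jund applies to these shares too.

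**Figure D4:**
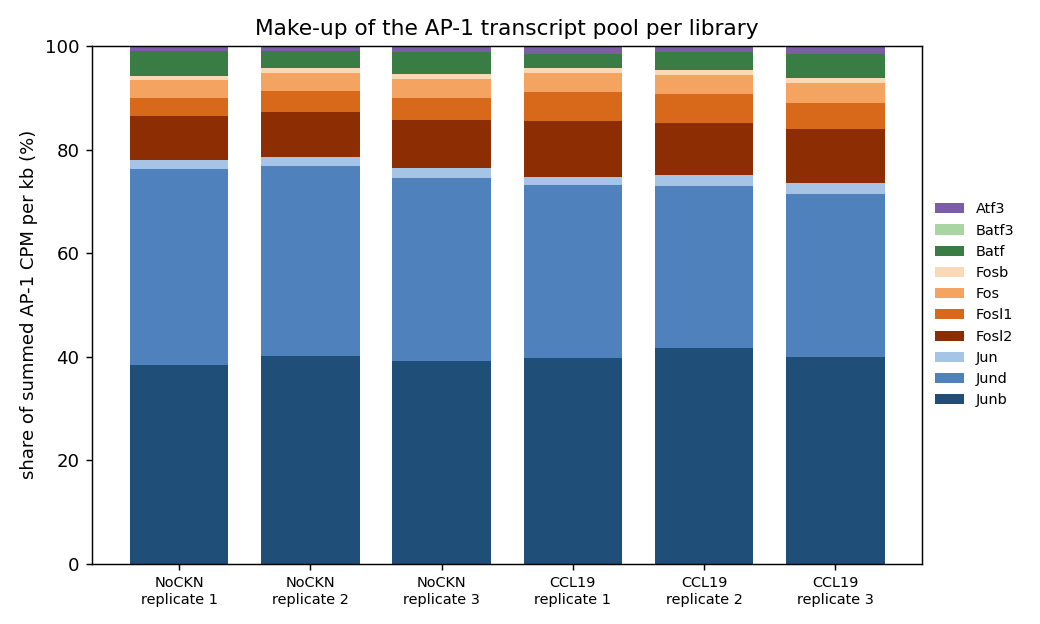
Stacked bars give, for each library, the percent of the summed AP-1 CPM per kb held by each member (JUN genes in blue, FOS genes in orange and brown, BATF genes in green, Atf3 in purple). Junb and Jund fill most of every bar, and the orange and brown part takes 16.2% to 18.1% in the NoCKN libraries and 20.2% to 21.1% in the CCL19 libraries.

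Fos and Batf are 209 kb apart on chromosome 12, with 1 gene of the table between them, Jdp2, itself an AP-1 inhibitor of the same protein class. Jdp2 had 4 to 16 counts per library and a log2 fold change of -0.34 ± 0.60 (edgeR adjusted p = 0.753). Batf3 and Atf3 are 61.4 kb apart on chromosome 1, and Batf3 was at or near 0 where Atf3 was measured at 256 to 386 counts.

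Many early response mRNAs carry AU-rich elements in the 3′ untranslated region, through which they are rapidly degraded. The pentamer ATTTA, on the transcript strand of the longest annotated transcript, occurred in all members except Batf and Batf3, and in 68.9% of tested genes. Fos has 4 copies in 815 bases, or 4.91 per kb, and Junb 2 in 485 bases, or 4.12 per kb, against a median of 1.26 per kb over tested genes. Fosl2 has 8 copies in 4653 bases, 1.72 per kb, and Fosl1, Jun, Jund and Atf3 have 1.57 to 3.24 per kb. Fosb lies below that median, with 1 copy in 2145 bases, or 0.466 per kb. The longer element TTATTTATT was found in Fos and Fosl2 among the 10 members and in 7.98% of tested genes. These sites, shown with their flanks because they separate Fos and Fosl2 from the other members, read as follows, with the element in capitals.
Fos: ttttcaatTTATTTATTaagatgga
Fosl2: ttattttaTTATTTATTttaaatgt

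The genes most like each tested member over the 6 libraries were sought among 8501 others by Pearson's r of log2 CPM. Fosl1 was most like Rrp12 and Grwd1, both ribosome assembly factors (r = 0.998 and 0.997), and 424 genes had an r over 0.95 with it. Atf3 was most like Rrn3, an initiation factor of RNA polymerase I, and Lonrf1 (0.999 and 0.996, with 207 genes over 0.95), and Fosl2 most like the integrin subunit Itgb2 and the protease Ctsz (0.998 and 0.996, 281 genes). For Batf the nearest were Yipf2 and Gimap3 (0.998 and 0.996, 236 genes). Fos was nearest to Ncdn and Ints1 (0.989 and 0.986), Fosb to Upf1 and Gbf1 (0.993 and 0.989), Junb to the kinase Jak3 and Atp13a1 (0.991 and 0.987) and Jund to Myo9b and Sp2 (0.994 and 0.993). Jun was nearest to Atp5k and Tmem230 (0.996 and 0.978) and had only 4 genes over 0.95. All these genes share the same 6 libraries, so the values describe patterns over few points.

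Genes around AP-1 were followed in 7 lists of upstream regulators, partners and targets, of which edgeR called 0 members (0.0% of all genes). The counts that follow are those of DESeq2, which called 6.55% of genes higher and 5.6% lower. Of the T cell genes known as AP-1 targets, 28 were tested, 23 had a log2 fold change above 0 and the median was 0.37, beside 0.00 over all tested genes. DESeq2 called 11 of the 20 with an adjusted p higher and 0 lower. These were Il2, Lta, Lif, Cd69, Il2ra, Fasl, Cd40lg, Tnfsf11, Bcl2l1, Ccl3 and Ccl4, and the list was drawn up with results for several of them known. Lif, a cytokine of the interleukin-6 family, stood at 34.8 ± 4.98 CPM in the CCL19 libraries and 23.1 ± 3.30 CPM in the NoCKN libraries (log2 fold change 0.59 ± 0.12; edgeR adjusted p = 0.0505, DESeq2 adjusted p = 0.00256). Il2 had a log2 fold change of 0.58 and Il2ra of 0.55, and the estimates of Prdm1, Vim, Ctla4, Dusp1 and Furin lay below 0. The count of 11 of 20 dropped to 1 of 15 without CCL19 replicate 1 and to 3 of 10 without NoCKN replicate 1. Without CCL19 replicate 2 it dropped to 6 of 19. Calls over all genes fell too, from 1168 to 55, 105 and 123 in these fits. Lif lost its call or had no adjusted p in each of these 3 settings, Il2 in the first and second, and Il2ra in none of them.

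**Figure D5:**
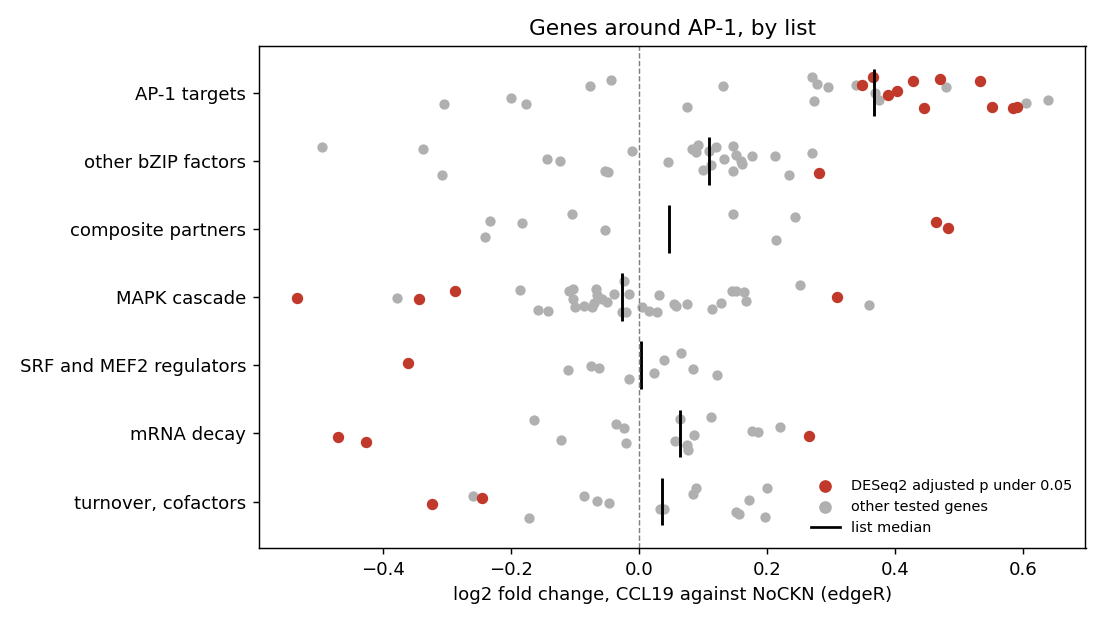
Log2 fold change (edgeR) of the tested genes in 7 lists around AP-1; red points have a DESeq2 adjusted p under 0.05, grey points do not or have none, black bars are list medians and points are spread vertically for legibility. The median of the AP-1 targets lies at 0.37 and those of the other lists between -0.03 and 0.11.

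Partners of AP-1 at composite sites gave values on both sides of 0. Irf4, the partner of BATF and JUN proteins, stood at 1198, 1021 and 881 CPM in the CCL19 libraries and 616, 812 and 790 CPM in the NoCKN libraries (log2 fold change 0.48 ± 0.12; edgeR adjusted p = 0.0505, DESeq2 adjusted p = 0.00368), with no overlap between the groups. Its DESeq2 call was lost without CCL19 replicate 1. Irf8, its close relative, stood at 165 ± 28.5 CPM against 120 ± 22 CPM (0.46 ± 0.13; edgeR adjusted p = 0.0611, DESeq2 adjusted p = 0.0140). Its groups overlapped, and the call was lost without CCL19 replicate 1, CCL19 replicate 2 or NoCKN replicate 1. These were the 2 of 10 members of the list that DESeq2 called, both higher (6.55% of all genes). Runx3, a transcription factor of cytotoxic T cells, had -0.23 ± 0.08 (edgeR adjusted p = 0.0899). Among 27 tested bZIP relatives the median was 0.11. Of 24 with an adjusted p DESeq2 called 1 higher (6.55% of all genes), Cebpz (0.28 ± 0.08), a nucleolar protein that is bZIP in name only. Its call was lost without each library except CCL19 replicate 3 and NoCKN replicate 3, and with the offset, under which DESeq2 called Mafk and Nfe2l1 higher and, among the composite partners, Ets1 lower beside Irf4 and Irf8. The cyclic AMP element modulator Crem had 0.24 ± 0.09 and the bZIP factor Cebpb -0.50 ± 0.16, neither of them called (edgeR adjusted p = 0.117 and 0.0766).

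The kinases upstream of AP-1 had a median log2 fold change of -0.03 over 39 tested genes. DESeq2 called 3 of 38 lower and 1 higher (5.6% and 6.55% of all genes). Rasgrp2, an exchange factor for RAP1, stood at 116 ± 16.7 CPM against 168 ± 29.3 CPM (log2 fold change -0.54 ± 0.12; edgeR adjusted p = 0.0505, DESeq2 adjusted p = 0.00246). The kinase ERK1, encoded by Mapk3, had -0.34 ± 0.09 and Map3k3 -0.29 ± 0.08. Map2k3, which activates p38, was called higher (0.31 ± 0.11). The DESeq2 calls of these last 3 were lost or had no adjusted p without CCL19 replicate 1, CCL19 replicate 2 or NoCKN replicate 1, and that of Map2k3 also without NoCKN replicate 3. With the offset for length and GC content DESeq2 called 1 gene of the list lower, Rasgrp2, and 1 higher, Map2k3, so Mapk3 and Map3k3 lost their calls. Of the 10 tested regulators of the serum response and MEF2 sites, DESeq2 called Mrtfa, a coactivator of serum response factor, lower (-0.36 ± 0.08), and that call was lost without CCL19 replicate 1 or 2. With the offset Mrtfa had -0.23 and was called, as was Srf, the serum response factor itself, in the other direction (0.25, DESeq2 adjusted p = 0.0486). Mrtfb (-0.11) and Mef2a (0.12) followed by p and were not called.

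Of 17 genes of mRNA decay, DESeq2 called 2 lower and 1 higher (5.6% and 6.55% of all genes). Zfp36l2, which binds AU-rich elements and promotes decay, stood at 313, 304 and 308 CPM in the CCL19 libraries and 476, 415 and 350 CPM in the NoCKN libraries (-0.43 ± 0.10; edgeR adjusted p = 0.0505, DESeq2 adjusted p = 0.00249). Tob1, which recruits deadenylases, had -0.47 ± 0.09, and Elavl1, the RNA-binding protein HuR that stabilises AU-rich mRNAs, had 0.27 ± 0.07. The call of Elavl1 was lost without CCL19 replicate 1, CCL19 replicate 2 or NoCKN replicate 1. Of 16 genes of protein turnover and cofactors, DESeq2 called 2 lower (5.6% of all genes). These were the pseudokinase Trib2 (-0.32 ± 0.09) and menin, encoded by Men1, which binds JUND (-0.25 ± 0.08). The call of Trib2 was lost without CCL19 replicate 1, CCL19 replicate 2 or NoCKN replicate 1. Men1 had -0.12 with the offset for length and GC content and lost its call there. With libraries left out it was called without CCL19 replicate 3 only. Cops5, a coactivator of JUN, had 0.20 ± 0.08 and was not called (edgeR adjusted p = 0.117).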

How the data were processed

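Messenger RNA of 6 libraries was analysed. The authors deposited raw read counts per gene, whole numbers without normalization, with NCBI Gene IDs and mm10 coordinates per the file headers, and a list of changed genes with its direction in words. Reads were aligned with STAR 2.5 and counted with featureCounts 1.5.0-p1, per the submitters' processing notes. The strand setting, the handling of reads with several matches and the annotation are not stated there.

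Groups came from sample titles. The main test was edgeR 4.0.16 (quasi-likelihood F test, filterByExpr, TMM) in R 4.3.3 on all 11666 genes that passed, with Benjamini-Hochberg adjustment over them and a threshold of 0.05. DESeq2 1.42.0 on all rows and limma 3.58.1 (voom) were alternatives. SE is the log2 fold change over the root of F. Log2 CPM used a prior count of 2. Exon lengths, GC content (95.9% of tested genes) and untranslated regions came from GENCODE M21, the same assembly. Further settings were size factors from DESeq2, filters of none or of 1 CPM in 3 or more libraries, edgeR with a robust prior, a replicate block, an offset for GC content and length (splines of 5 degrees of freedom), each library left out, and the longest transcript for length. DESeq2 with the offset, with the block or without each library, and the alternatives for pool shares, were added after the data were seen. The tests were tried on simulated data.

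Members and lists were chosen with earlier results of these data known. Named are all members, up to 3 genes of smallest p per list and the 2 genes most like each member (mean log2 CPM of at least 3). Other genes named were chosen after their values were seen.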

Additional observations from a re-analysis of the deposited data

How the results depend on the processing

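edgeR's 0 called genes became 1600 with no filter on low counts, 529 with a robust prior, and 0 to 1599 when each library was left out, with 1599 without CCL19 replicate 3 and 513 without NoCKN replicate 3. DESeq2 called 1168 genes, 1008 with the offset for length and GC content and 178 with the replicate block. Without CCL19 replicates 1, 2 and 3 in turn it called 55, 123 and 1704, and without NoCKN replicates 1, 2 and 3 it called 105, 1010 and 1258. The 7 lists around AP-1 went from 0 called genes in edgeR to 28 with no filter, 16 with a robust prior and 0 to 30 with each library left out. In DESeq2 they held 24 called genes, 25 with the offset, 11 with the block, and 4, 10, 34, 7, 27 and 23 with the libraries left out in the same order. Fosl1 (0.37, edgeR adjusted p = 0.0100) and Atf3 (0.40, 0.0299) passed in edgeR with no filter. Fosl1 also passed in edgeR without CCL19 replicate 3 (0.50, adjusted p = 0.0186) and in DESeq2 with the offset (0.49, adjusted p = 0.0193). With each library left out, log2 fold changes in edgeR ranged from -0.036 to 0.11 for Fos, -0.057 to 0.11 for Fosb, 0.26 to 0.51 for Fosl1, 0.12 to 0.30 for Fosl2, -0.13 to 0.017 for Jun, -0.080 to 0.10 for Junb, -0.35 to -0.14 for Jund, -0.36 to -0.12 for Batf and 0.26 to 0.50 for Atf3. In DESeq2 the sign changed for Fos (-0.035 without CCL19 replicate 1, -0.0073 and -0.0019 without NoCKN replicates 1 and 3), Fosb (-0.056 without CCL19 replicate 1), Jun (0.018, 0.0027 and 0.0030 without CCL19 replicate 1, CCL19 replicate 3 and NoCKN replicate 2) and Junb (0.082 and 0.11 without CCL19 replicate 3 and NoCKN replicate 2). There Fosl1 and Fosl2 passed without CCL19 replicate 3 (0.51 and 0.30) and without NoCKN replicate 2 (0.51 and 0.31), and Jund passed without NoCKN replicate 3 (-0.32). With the offset for length and GC content, Jun had 0.042 in edgeR and 0.041 in DESeq2, and Junb 0.16 in both. The difference in the pool share of Batf was -0.45 percentage points, 0.018 without CCL19 replicate 1 and -0.995 without CCL19 replicate 3. The cause of these changes was not tested.

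Whether replicate numbers pair the samples is not in the labels, and 3 libraries per group are too few to decide it. Deviations from the group means of same-numbered libraries correlated at -0.164, 0.0814 and -0.0207, and not every library correlated best with its own number. By chi-square, however, CCL19 replicate 3 and NoCKN replicate 3 were the closest of all pairs (5.32 per degree of freedom). With the replicate block edgeR called 0 genes and no member, with log2 fold changes of 0.37 for Fosl1, 0.40 for Atf3 and -0.24 for Jund, and with the block and the offset Jun had 0.036 and Junb 0.16. In DESeq2 with the block the AP-1 targets went from 11 calls of 20 genes with an adjusted p to 7 of 16. The MAPK list went from 3 lower and 1 higher of 38 to 1 lower and 0 higher of 34. Calls over all genes went from 1168 to 178.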
